A study of Caenorhabditis elegans with 2 samples.

Results

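The 5 genes described here are tasp-1, set-16, set-2, ash-2 and wdr-5.1 of Caenorhabditis elegans, 5 of the 19973 protein-coding genes on the nuclear chromosomes. They were chosen by name, with the ZTF-22 binding values of these libraries already known, since tasp-1 was seen to hold one of the strongest peaks. Their ranks and counts are therefore a description, and no test was made of them. ZTF-22, a zinc finger protein, was profiled by chromatin immunoprecipitation and sequencing (ChIP-seq) with an anti-GFP antibody in whole young adults of strain OP676, collected at 68 hours after synchronisation by starving L1 larvae from bleached cultures. This strain carries the unc-119 allele tm4063 and the transgene wgIs676, which holds ztf-22 fused to TY1, EGFP and 3xFLAG together with unc-119(+). There was 1 group, of pooled males and females, with 2 biological replicates and no other strain, stage or treatment. The tags are at the C terminus, per the labels, which give neither the promoter of the fusion nor the state of the native ztf-22 gene. The antibody field names ztf-22 itself.

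Methylation of histone H3 on lysine 4 marks the promoters and enhancers of active genes. It is laid down by COMPASS complexes, in which a SET domain methyltransferase sits on a core of shared subunits. In the worm, set-2 encodes the SET1-type enzyme and set-16 the enzyme related to mammalian MLL3 and MLL4, while ash-2 and wdr-5.1 encode subunits of the core. Taspase is a threonine protease. In mammals it cleaves the MLL1 methyltransferase and the large subunit of the transcription factor TFIIA, and tasp-1 encodes its worm homologue.

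The data are the authors' lists of regions on ce11. Each replicate has a list of 30000 candidate regions, as have the pooled reads of both replicates, and 952 regions of the pooled list form the list of optimal peaks. Per their deposited descriptions, the candidate lists include background regions. Each region has a summit, the base of its highest point, and a signal value in the authors' units. Signal values are not on 1 scale: their median was 48.4 when pooled, 19.2 for replicate 1 and 34.5 for replicate 2. They were therefore read as ranks within a list, 1 being the strongest, or as multiples of its median. All 952 optimal peaks were the strongest 952 regions of the pooled list, and for each replicate alone its strongest 952 regions were taken as the matching set. A summit was given to a gene when it lay within 2 kb of one of its transcript starts or inside the gene. A whole-animal signal sums over all cells, so fewer cells with binding and less binding per cell cannot be told apart. The depth of the libraries is unknown from these files, and so is the error of each signal value.

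Of the 5 genes, 2 had an optimal peak, tasp-1 and set-16, and 3 did not. By the same rule 5.13% of all protein-coding genes had an optimal peak, and nothing is read from the difference, since the members were chosen on these values. The same 2 genes, and no other of the 5, had a summit among the strongest 952 regions of replicate 1 (5.21% of all genes) and of replicate 2 (5.15% of all genes). Both optimal summits lay upstream of the start, within the window from 500 bp upstream to 200 bp downstream in which 1.91% of all genes had one. The first gene outside was set-2. Its strongest pooled region had a signal value of 96.5, below the 110 of the last optimal peak, while that of set-16 had 250.

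All 5 genes had at least 1 summit in every candidate list. That distinguishes few genes, since 75.3% of protein-coding genes had one in the pooled list, 77.6% in replicate 1 and 75.3% in replicate 2. The genes held 25 summits in the pooled list, 25 in replicate 1 and 23 in replicate 2. Of these, 15, 13 and 16 ranked beyond 10000. Each candidate list has 30000 regions, so most regions rank beyond 10000 by construction, and these counts do not mark the summits as unusually weak. In the order of best ranks, tasp-1 came first and set-16 second in every list, as the plot of best ranks shows. In the pooled list and replicate 2, set-2, wdr-5.1 and ash-2 followed in that order. In replicate 1, wdr-5.1 came before set-2 and ash-2. With 2 replicates, the order of these last genes did not hold between libraries.

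**Figure D1:**
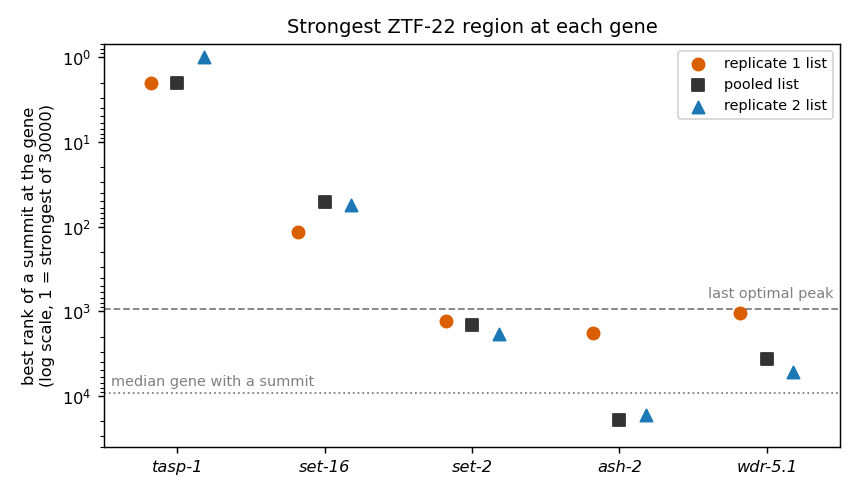
Best rank of any summit at each of the 5 genes (y axis, log scale, 1 is the strongest of 30000) in the replicate 1, pooled and replicate 2 lists. The dashed line is rank 952, that of the last optimal peak, and the dotted line rank 9285, the median best rank of protein-coding genes with a pooled summit; only tasp-1 and set-16 lie above the dashed line in all 3 lists, and points of 1 gene need not be the same summit.

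The tasp-1 promoter held one of the strongest ZTF-22 sites of the genome in both replicates. The gene (WBGene00010480) lies at chrIII:10759307-10763021 on the + strand of ce11 and has 3 annotated transcript starts. The summit ranked 2 in replicate 1, with a signal value of 142, and 1 in replicate 2, with a signal value of 390. These are 7.41 and 11.3 times the medians of the lists. In the pooled list it ranked 2, with a signal value of 526 (10.9 times the median) and a q value of 0.00137. Only 1 protein-coding gene had a better best rank in the pooled list and in replicate 1, and none in replicate 2. Upstream of the first start, the summit was at 56 bp when pooled, 43 bp in the first replicate and 72 bp in the second, so the replicate summits lay 29 bp apart. Across the 855 optimal peaks matched in both replicates, that distance had a median of 31 bp.

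The pooled region was 250 bp wide, one of 19 among the 30000 that were narrower than the common width of 390 bp, all of them optimal peaks. In replicate 2 it was 266 bp wide, against a common width of 404 bp, while in replicate 1 it had the common width of 356 bp.

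The sequence up to the first tasp-1 start is shown because it lies under this peak. It is chrIII:10759107-10759306 on the + strand (RefSeq, WBcel235), the 200 bases that end just before the start, and overlaps no annotated gene. The 30 capitals mark the stretch from the lowest to the highest summit among the pooled and replicate lists.
tasp-1: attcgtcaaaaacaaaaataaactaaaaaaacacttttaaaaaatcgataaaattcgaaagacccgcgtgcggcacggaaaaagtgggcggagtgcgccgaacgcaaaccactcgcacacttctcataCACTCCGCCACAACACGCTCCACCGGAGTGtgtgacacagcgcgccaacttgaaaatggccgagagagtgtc

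The 201 bp around the pooled tasp-1 summit were 55.2% G and C. The median was 43.8% in the same windows of the 952 optimal peaks (quartiles 39.3% and 48.8%) and 41.3% in those of the other 29048 candidate regions.

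The other summits at tasp-1 were weak, and the replicates shared only some of them. A summit 675 bp downstream of the first start, in an intron, ranked 2987 in the pooled list, at 1.61 times the median. It was matched at rank 2807 in replicate 1, in a coding exon at 690 bp, and at rank 15161 in replicate 2. Summits 1805 bp upstream (rank 17510) and 890 bp downstream (rank 23431) were below the pooled median. No other protein-coding gene had a start as near to the strong summit as tasp-1. The closest were those of K01G5.10, divergent from tasp-1, at 729 bp, and of rnf-113, a putative ubiquitin ligase gene, at 1611 bp.

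The transgene carries a copy of unc-119, whose own locus (chrIII:10902641-10908935) begins 143 kb from the tasp-1 summit. The best summit at unc-119 ranked 10191 in the pooled list and 10132 in replicate 2, and replicate 1 had none there. The transgene also carries ztf-22, whose own locus is on chrII. The best summit at that locus ranked 1441 when pooled, 2972 in replicate 1 and 1243 in replicate 2. Within 20 kb of the tasp-1 summit there were 2 other optimal peaks, the stronger at rank 284, and 2 others among the strongest regions of each replicate, at ranks 356 and 359 at best.

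The protein-coding genes most like tasp-1 were rpl-3, K11H12.8 and rpl-15. Likeness was the sum over both replicates of the difference in log10 rank of the best summit in the promoter window, over 2987 genes with such a summit in all 3 candidate lists. The sum was 0.60 for rpl-3, a gene of the large ribosomal subunit, which ranked 1 in replicate 1 and 2 in replicate 2. It was 1.43 for both K11H12.8 and the ribosomal gene rpl-15, which share a summit with ranks of 9 and 6 in the replicates.

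**Figure D2:**
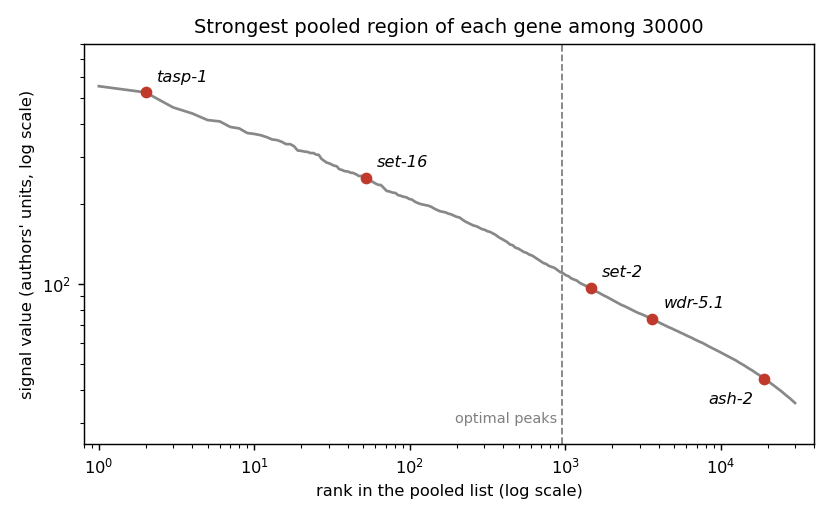
Signal value (authors' units, log scale) against rank (log scale) for the pooled list, with the strongest region of each of the 5 genes as a point. The dashed line is rank 952; tasp-1 (526) and set-16 (250) lie to its left, and set-2 (96.5), wdr-5.1 (73.8) and ash-2 (44.1) to its right.

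The set-16 promoter held a strong site that set-16 shares with its divergent neighbour drr-2. The gene (WBGene00011729, chrIII:13643916-13656637, + strand) spans 12.7 kb with 1 annotated transcript. Its strongest summit ranked 115 in replicate 1 (signal value 63.6, 3.31 times the median), 55 in replicate 2 (182, 5.27 times) and 52 in the pooled list (250, 5.17 times, q = 0.00137). The rank was lower in replicate 1 than in replicate 2, and well inside the strongest 952 in both. The replicate summits lay 10 bp apart, 188 and 198 bp upstream of the start. In the pooled list, 64 protein-coding genes, 0.32% of all, had a better best rank. The summit sits in the 345 bp between the starts of set-16 and drr-2, an RNA-binding protein gene on the - strand, and is slightly nearer to drr-2 (164 bp) than to set-16 (182 bp). The start of T12D8.10 was 1407 bp away.

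The sequences around the set-16 and set-2 summits are shown for comparison with tasp-1, since they are the strongest pooled summits of the next 2 of the 5 genes, one inside the optimal list and one outside. They are chrIII:13643634-13643834 on the + strand and chrIII:4930328-4930528 on the - strand (RefSeq, WBcel235), 201 bases each, read towards the gene, and overlap no annotated gene. The capitals, 17 and 33 bases, again mark the stretch between the summits of the lists.
set-16: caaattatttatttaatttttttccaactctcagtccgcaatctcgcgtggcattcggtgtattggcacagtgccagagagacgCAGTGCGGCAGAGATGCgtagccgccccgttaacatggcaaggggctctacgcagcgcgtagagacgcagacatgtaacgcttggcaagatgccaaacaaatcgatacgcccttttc
set-2: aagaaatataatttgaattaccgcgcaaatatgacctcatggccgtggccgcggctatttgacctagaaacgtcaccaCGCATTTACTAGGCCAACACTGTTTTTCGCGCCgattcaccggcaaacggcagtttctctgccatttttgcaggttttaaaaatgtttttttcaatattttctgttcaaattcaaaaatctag

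The set-16 window held 2 copies of CTGCGTCTC, both read on the other strand as GAGACGCAG, at bases 79 to 87 and 146 to 154 of the printed sequence. The first copy reaches into the capitals. On either strand, 9.14% of the 952 optimal windows of 201 bp held these letters, against 1.96% of the other 29048 candidate windows. The source of the letters is not given here, and no test was made of this difference. At least 2 copies were in 7 optimal windows (0.735%) and in 41 others (0.141%). The windows of the strongest pooled summits of tasp-1, set-2 and ash-2 held none, and that of wdr-5.1 held 1 copy, 13 bp from its summit. The shorter CTGCGTC, which is part of CTGCGTCTC, gave the same counts in the 5 genes and was in 11.9% of optimal and 3.33% of other windows.

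The letters TGATAA, a form of the site of GATA factors, were in none of the 5 windows on either strand, while 34.9% of optimal and 16.9% of other windows held them. The letters GAGAG were found 2 times at tasp-1, in overlapping copies, 2 times at set-16, 1 time at ash-2, 2 times at wdr-5.1 and not at set-2. One of the set-16 copies overlaps a CTGCGTCTC match. GAGAG was in 54% of optimal and 33.3% of other windows. The 201 bp windows were 50.7% G and C at set-16, 40.3% at set-2, 34.8% at ash-2 and 35.8% at wdr-5.1.

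Inside set-16, the replicates differed. In replicate 1, 2 summits in coding exons were among the strongest 952, one in exon 5, 2050 bp from the start (rank 465, 2.36 times the median), and one in exon 11, 9044 bp from the start (rank 800, 2.06 times). In replicate 2, the nearest summits, at 2152 bp and 9008 bp, ranked 10043 and 16622. The pooled list had them at ranks 2109 and 2669, outside the optimal peaks. Among the strongest 952 regions, 14.8% of summits lay in coding exons in replicate 1 against 6.62% in replicate 2; the part of this in the set-16 difference was not tested. A summit in exon 4 went the other way, with rank 3850 in replicate 2, 4472 in the pooled list and a match at rank 16717 in replicate 1. Inside drr-2, 854 bp upstream of set-16, a pooled summit ranked 1461, with rank 1461 also in replicate 2 and no match in replicate 1.

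The whole set-16 locus held more candidate regions per kb than the genome as a whole. It held 11 pooled summits in 14.7 kb, or 0.747 per kb, against 0.299 per kb over the genome. The genome value also covers stretches away from genes, and the value over all genes is not given here. In the replicates it held 0.747 and 0.679 per kb. At tasp-1 the value was 0.7 per kb in all 3 candidate lists, and at set-2 it was 0.409 when pooled, 0.511 in replicate 1 and 0.307 in replicate 2. The other genes differed more between lists. At wdr-5.1 the value was 1.25 per kb when pooled and 1 in replicate 2 but 0.25 in replicate 1, and at ash-2 it was 0.0892 when pooled and 0.178 in replicate 2 but 0.357 in replicate 1.

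**Figure D3:**
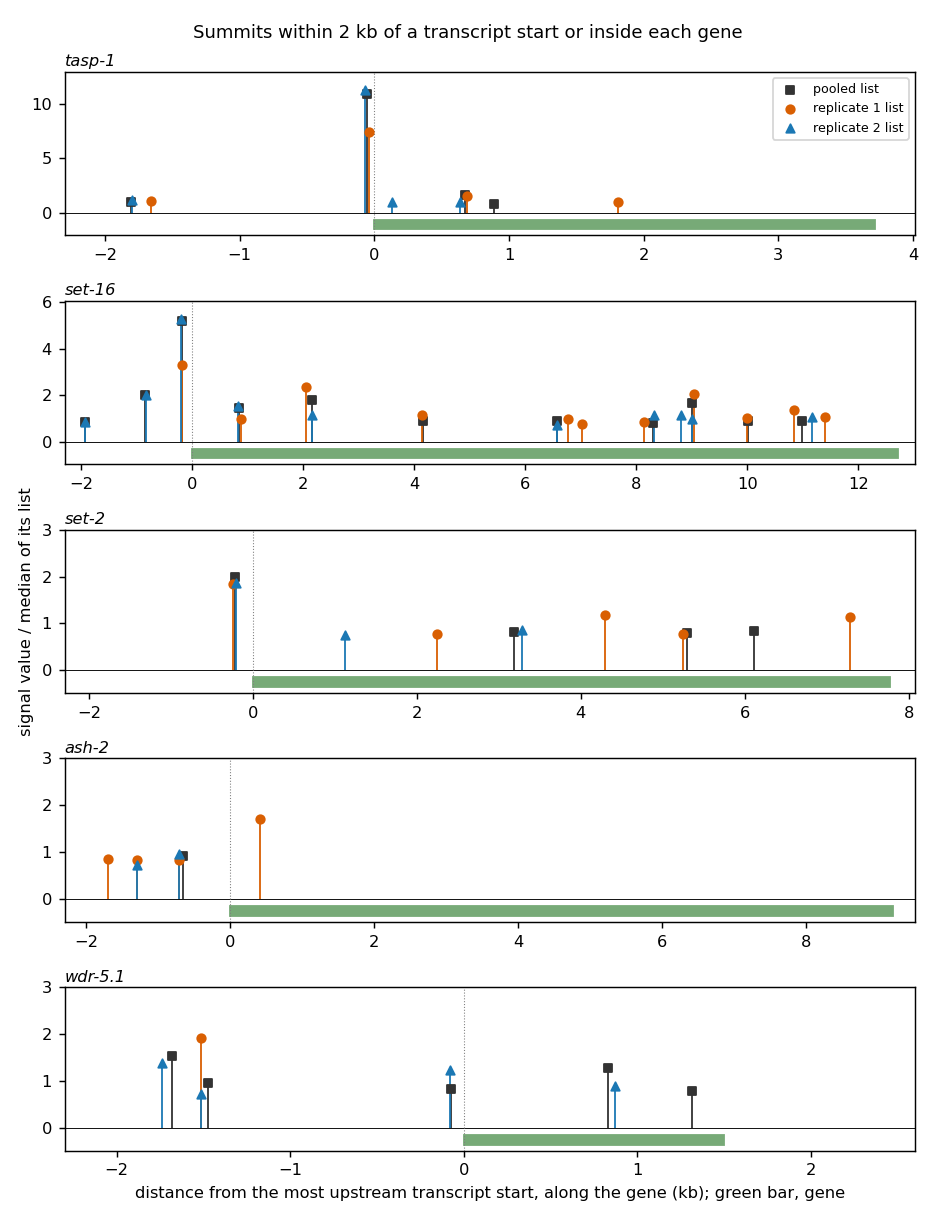
Summits at each gene by distance from its most upstream transcript start (x axis, kb, positive along the gene) and signal value as a multiple of the median of its list (y axis). Squares are the pooled list, circles replicate 1 and triangles replicate 2, and the green bar is the gene; the tall summit of tasp-1 (10.9 times the median when pooled) and that of set-16 (5.17 times) stand just upstream of the start, and set-2 has a lower one (1.99 times) in the same place.

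At set-2, a weaker summit stood at the promoter in every candidate list. The gene (WBGene00004782, chrIII:4922427-4930204, - strand) has 3 annotated starts. The summit ranked 1307 in replicate 1 (signal value 35.3, 1.83 times the median), 1883 in replicate 2 (64, 1.86 times) and 1454 in the pooled list (96.5, 1.99 times). All 3 ranks were below the strongest 952, and the q values were 0.057, 0.0688 and 0.0451. The replicate summits lay 32 bp apart, 246 and 214 bp upstream of the first start. The nearest other start, that of C26E6.12 on the same strand, was 1825 bp away, and the summit lay in the 397 bp between the 2 genes. In the pooled list, 7.74% of protein-coding genes had a better best rank. The remaining summits of set-2 ranked 8862 or lower in the lists.

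At ash-2, no summit was strong in both replicates. The gene (WBGene00012458, chrII:11979838-11989050, + strand) has 5 annotated starts. Its only pooled summit, 655 bp upstream of the first start and inside the neighbouring gene Y17G7B.20, ranked 19039, at 0.913 times the median. It matched summits at ranks 24042 and 16835 in replicates 1 and 2. Replicate 1 alone had a summit 408 bp downstream of the first start, 180 bp upstream of the nearest start and within an exon of a transcript annotated as non-coding. It ranked 1784, at 1.72 times the median, with a q value of 0.105, and no summit of replicate 2 or the pooled list matched it. Just outside the 2 kb limit, 2296 bp from the first start, a pooled summit ranked 1453. In replicate 1 a summit at 2267 bp ranked 1595. The nearest summit outside the limit in replicate 2, at 2109 bp, ranked 28449 and was too far from the pooled one to match it. Only the nearest summit beyond the limit was read in each list. Whether replicate 2 had a summit at the pooled site, farther out, is therefore not shown here.

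At wdr-5.1, the strongest summits lay at the preceding gene. The gene (WBGene00006474, chrIII:3705285-3706784, + strand) has 1 annotated start. Its best pooled summit ranked 3628 (signal value 73.8, 1.53 times the median), 1681 bp upstream and 40 bp past the start of C14B1.3, which lies on the same strand. The best summit was at rank 1057 in replicate 1, 1513 bp upstream, and at rank 5290 in replicate 2, 1742 bp upstream, so these were 229 bp apart. Replicate 2 also had a summit 3 bp from the best one of replicate 1, at rank 29754. The pooled summit matched to these 2 ranked 16130. At the wdr-5.1 start itself, a summit 75 bp upstream in the pooled list ranked 23329 and one 80 bp upstream in replicate 2 ranked 7772. Replicate 1 had none there.

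Between replicates, the summits at the 5 genes were matched about as often as candidate regions in general. Of the 25 pooled summits, 9 had a summit within 100 bp in each replicate, a share near the 30.9% of all pooled candidate regions. Within 200 bp 14 were matched, and 15 by overlap of the regions, against 42.6% and 50.9% of all. Of the 952 optimal peaks, 89.8% were matched. The 9 were 2 at tasp-1, 4 at set-16 and 1 at each of set-2, ash-2 and wdr-5.1. Of the 25, 13 lay in coding exons of these genes, 1 in an intron, 1 in a UTR and 10 outside. Of all 30000 pooled summits, at genes or away from them, 35.5% lay in coding exons.

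Few other genes of histone methylation had strong ZTF-22 sites, as holds for genes in general. The list held 27 further genes, namely 9 of COMPASS, 4 of H3K4 demethylases, 13 of other SET domain enzymes and pqn-51, of which 26 were found by name and wdr-82 was not. One of the 26 had an optimal peak, against 5.13% of all protein-coding genes, and 23 had a pooled candidate summit, against 75.3%. None of the 8 other COMPASS subunit genes found had an optimal peak or a summit among the strongest 952 of either replicate. Their best ranks in the pooled list began at 3224 (wdr-5.3, a paralogue of wdr-5.1), and 2 of the 8 had no pooled summit, rbbp-5 and wdr-5.2. The 4 H3K4 demethylase genes had no optimal peak either, and the best was amx-1 at rank 1569, 1970 bp upstream of its start. The pooled summit at pqn-51, listed as a homologue of the TFIIA subunit that taspase cleaves in mammals, ranked 2791 in an intron, with best ranks of 1332 and 4105 in the replicates.

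The gene with an optimal peak was lin-59, a putative histone lysine methyltransferase gene and one of 13 other SET domain genes. Its summit, 612 bp upstream of the start, ranked 691 in the pooled list (signal value 122). In replicate 1 the best summit, 619 bp upstream, ranked 417. In replicate 2 the best summit, 508 bp upstream and so not within 100 bp of the pooled one, ranked 973, outside the strongest 952. A second SET domain gene, met-1, had a summit among the strongest of replicate 1 only (rank 779, 75 bp upstream). The same promoter ranked 1307 in the pooled list. In replicate 2 the best summit of met-1 was a different one, at rank 2963. It lay in a coding exon, 3639 bp downstream of the nearest start. At set-26 the best summit, 625 bp upstream when pooled, ranked 1378 in the pooled list, 1170 in replicate 1 and 2146 in replicate 2, close to the ranks of set-2. At set-1 it ranked 1092, 2595 and 1165, 1463 bp upstream when pooled. Over the 23 listed genes with a pooled summit, the median best rank was 9509, against 9285 over all protein-coding genes with one.

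**Figure D4:**
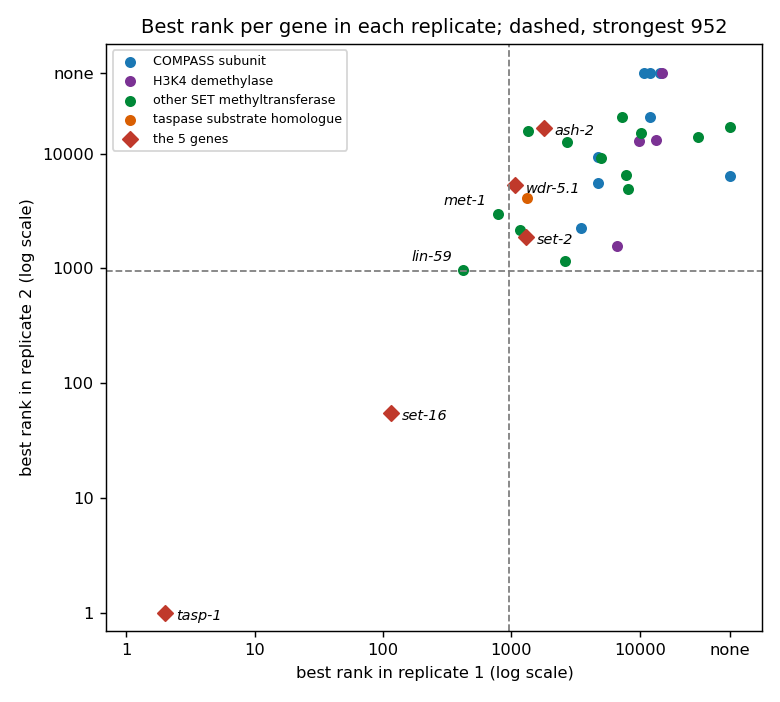
Best rank of each gene in replicate 1 (x axis) and replicate 2 (y axis), both on log scales, for the 5 genes (diamonds) and 26 other listed genes (circles, coloured by role); genes with no summit in a list are placed at "none". The dashed lines are rank 952. Only tasp-1 and set-16 lie inside both, while lin-59 and met-1 lie inside that of replicate 1 alone. The ranks of 1 gene need not be those of the same summit.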

How the data were processed

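ChIP-seq of 2 biological replicates was analysed from 4 region lists on ce11. Per the deposited file descriptions, each candidate list was made from its alignments and the same control alignment, and optimal peaks came from a comparison of the lists by the irreproducible discovery rate. No source used here gives the caller, aligner, read filters or threshold. The signal value is the authors' and was used as deposited, for ranks and multiples of a list's median. The q values were deposited as -log10 q. Alignments, tracks and control reads were not used here.

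Genes came from Ensembl release 115 (WBcel235) and sequence from RefSeq. All summits lay within the chromosomes, and 99.9% of 31805 annotated start codons read ATG. Positions are counted from 1. Summits of different lists were matched within 100 bp. Gene assignment was tested on simulated data. Python 3.11.15, numpy 2.4.6, pandas 2.3.3 and matplotlib 3.10.9 were used.

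The members and lists were chosen with earlier results of these data known. Named genes were the members, genes with a start within 2 kb of a member's optimal summit, the nearest start to each member's best pooled summit, listed genes with an optimal summit, and the 3 genes most like tasp-1. Other named listed genes were chosen after their values were seen. Protein sequences were not analysed here.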

Additional observations from a re-analysis of the deposited data

How the results depend on the processing

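The count of 2 members with an optimal peak was the same with a 1 kb limit, in the promoter window, with the stronger 476 optimal peaks, with overlap of the whole region, and from either replicate alone. The count of listed genes with an optimal peak, 1, became 0 in the promoter window, 0 with the stronger 476 peaks, and 0 to 2 when a replicate was left out. The share of all genes with an optimal peak became 1.91% in the promoter window and 2.59% with the stronger 476 peaks, which is built into those settings. Leaving out each replicate in turn, best ranks ran from 1 to 2 for tasp-1, 55 to 115 for set-16, 1307 to 1883 for set-2, 1784 to 16835 for ash-2 and 1057 to 5290 for wdr-5.1. For wdr-5.1 the best pooled rank was 6714 with a 1 kb limit and 23329 in the promoter window, which leaves out the summits at C14B1.3; ash-2 had no pooled summit in that window. The 9 member summits matched in both replicates became 14 within 200 bp and 15 by overlap, where 42.6% and 50.9% of all pooled regions matched. With 2 replicates and unknown depth, no error can be given for a single rank.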

Other observations

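The letters CGGAGTG, or CACTCCG on the other strand, occur 3 times in the 201 bp around the tasp-1 summit, at bases 89 to 95, 129 to 135 and 152 to 158 of the printed sequence. The last 2 copies are on opposite strands and fall within the capitals, where the summits of the lists lie. No other window among the 30000 pooled candidate regions held 3 copies. At least 1 copy was in 21 of the 952 optimal windows (2.21%) and in 341 of the other 29048 (1.17%). The window of rpl-3, the gene most like tasp-1 in rank, held 1 copy, and those of set-16, set-2, ash-2, wdr-5.1, K11H12.8 and rpl-15 held none. These letters were picked from the tasp-1 sequence after it was seen, so their rarity elsewhere is partly given by that choice, and no test was made.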
